A study of Homo sapiens with 36 samples.

Results

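The 10 genes described here encode chemokines and inflammatory cytokines: CXCL1, CXCL2, CXCL3, CXCL8, CXCL14, CCL2, TNF, IL6, IL11 and LIF. They were taken by symbol from the deposited gene tables, where each symbol had 1 row, and they are 10 of 57665 genes. The cells were U2OS, a human osteosarcoma line, carrying Dmr-PERK, in which the eIF2α kinase domain of mouse PERK is joined to DmrB. All groups carried this construct. AP20187, a dimerizer, brings DmrB domains together, and PERK paired in this way phosphorylates eIF2α, the entry step of the integrated stress response. Phosphorylated eIF2α lowers most protein synthesis and raises translation of the transcription factor ATF4. The groups were ATF4KO cells and WT cells, each collected after 2, 4, 8, 16 and 24 h with the dimerizer at a single labelled dose without a stated unit or left untreated (NT, given as 0 h). Each of the 12 groups had 3 wells, which made 36 libraries. The labels do not say whether ATF4KO is a single clone. Untreated wells of later times and cells without Dmr-PERK were not analysed here, so the kinase, the ligand and hours in culture cannot be told apart.

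Chemokines are small secreted proteins that attract leukocytes. CXCL1, CXCL2, CXCL3 and CXCL8 bind CXCR2 and draw neutrophils, CCL2 binds CCR2 and draws monocytes, and CXCL14 is made by many resting tissues. TNF acts through TNFRSF1A and TNFRSF1B and switches on NF-kB, which drives transcription of many chemokine genes. IL6, IL11 and LIF signal through receptor complexes that share gp130, the product of IL6ST. Many of these mRNAs carry AU-rich elements and are short-lived, so that their levels can move within hours.

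The bases before the start sites are shown because CXCL1, CXCL2 and CXCL3 have similar promoters, of which only that of CXCL3 went with more than a few counts, and because CXCL8, IL6 and CXCL14 followed 3 different courses. Each window is the 250 bases before the RefSeq start (GRCh38.p14), 5′ to 3′ on the gene's own strand. RefSeq windows were matched for 8 of the 10 genes, and those of CCL2 and LIF were not used here. Capitals mark matches to the NF-kB consensus or to the AP-1 motif TGANTCA.
CXCL8, chr4:73740319-73740568, plus strand: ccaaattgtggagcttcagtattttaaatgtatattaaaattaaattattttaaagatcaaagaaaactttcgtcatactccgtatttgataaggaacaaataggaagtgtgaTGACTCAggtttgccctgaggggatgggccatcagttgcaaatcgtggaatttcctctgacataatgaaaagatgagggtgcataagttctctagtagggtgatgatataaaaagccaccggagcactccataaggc
CXCL3, chr4:74038690-74038939, minus strand: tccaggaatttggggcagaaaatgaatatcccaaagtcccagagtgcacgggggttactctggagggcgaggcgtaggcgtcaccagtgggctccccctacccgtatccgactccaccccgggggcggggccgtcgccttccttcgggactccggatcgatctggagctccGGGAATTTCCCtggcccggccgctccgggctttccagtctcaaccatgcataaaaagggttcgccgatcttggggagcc
CXCL1, chr4:73869143-73869392, plus strand: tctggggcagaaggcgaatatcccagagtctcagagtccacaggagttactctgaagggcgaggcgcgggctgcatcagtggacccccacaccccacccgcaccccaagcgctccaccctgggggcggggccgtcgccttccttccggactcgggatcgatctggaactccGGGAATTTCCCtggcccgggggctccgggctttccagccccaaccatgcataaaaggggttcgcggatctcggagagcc
CXCL2, chr4:74099196-74099445, minus strand: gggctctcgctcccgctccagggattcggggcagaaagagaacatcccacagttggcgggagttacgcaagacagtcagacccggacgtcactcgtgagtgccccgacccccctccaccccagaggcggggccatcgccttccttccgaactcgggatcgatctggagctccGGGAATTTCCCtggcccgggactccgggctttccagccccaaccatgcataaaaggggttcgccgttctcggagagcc
IL6, chr7:22726950-22727199, plus strand: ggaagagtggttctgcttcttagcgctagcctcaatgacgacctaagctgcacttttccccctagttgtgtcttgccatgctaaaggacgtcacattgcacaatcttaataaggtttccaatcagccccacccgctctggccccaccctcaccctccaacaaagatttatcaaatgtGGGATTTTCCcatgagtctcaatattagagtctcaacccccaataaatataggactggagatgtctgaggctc
CXCL14, chr5:135578992-135579241, minus strand: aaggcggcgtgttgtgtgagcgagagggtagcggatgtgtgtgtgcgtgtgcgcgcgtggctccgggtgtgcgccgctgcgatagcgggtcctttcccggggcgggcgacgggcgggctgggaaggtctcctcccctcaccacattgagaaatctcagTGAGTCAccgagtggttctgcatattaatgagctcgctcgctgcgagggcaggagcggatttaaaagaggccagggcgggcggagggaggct
The NF-kB consensus was found in CXCL1, CXCL2, CXCL3 and IL6, beside 9.57% of 27305 promoter windows of the same length searched on both strands. In CXCL1 and CXCL3 it was read on both strands, in overlapping matches that run from 79 to 69 bases before the start, and in CXCL2 likewise from 78 to 68 bases. In IL6 it lay 73 to 64 bases before the start. TGANTCA, which reads the same on both strands, was found in CXCL8 (137 to 131 bases before the start), CXCL14 (92 to 86) and IL11 (96 to 90), beside 6.6% of all windows. TATAAA was found in CXCL8 and TNF, beside 11.13% of all windows. The cAMP response element TGACGTCA (1.77% of windows) and the ATF-C/EBP composite TGATGNAA (3.19%) had exact matches in 0 of the 8 windows on either strand. The IL6 and CXCL2 windows hold ggacgtca, which differs from TGACGTCA in its first base. A match is letters in a window and not a binding site, and near matches were not counted. The CXCL8 window holds tggaatttcc, which differs only in its first base from the NF-kB consensus that was searched. In pairwise alignments the CXCL1 and CXCL3 windows were identical at 81.4% of columns, CXCL2 and CXCL3 at 73.4% and CXCL1 and CXCL2 at 70.1%, and CXCL8 was identical to the others at 43.9 to 47.9%.

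Library totals lay between 8608783 and 16265056 counts. Levels are CPM, counts scaled to library size after TMM. Changes are log2 fold changes ± SE from edgeR's quasi-likelihood test fitted to all 36 libraries, with Benjamini-Hochberg adjustment over the 19043 genes tested. The SE was computed separately from the fitted values and spread of the same fit, and the p-values do not derive from it. A gene is said to rise or fall where the adjusted p is under 0.05. Nothing in the labels says that wells were separate cultures, and the p-values therefore reflect well-to-well spread, which may be technical. In bulk RNA, fewer cells of a type and less RNA per cell cannot be told apart. The mRNA of ATF4, the targeted gene, had 259 to 274 CPM in untreated ATF4KO libraries and 310 to 323 CPM in untreated WT libraries, and 259 to 760 CPM against 310 to 746 CPM over all times. The transcript was therefore present in ATF4KO cells, and these counts do not check the protein. Of 7 osteoblast-like or mesenchymal markers 5 averaged at least 1 CPM, among them VIM, COL1A1 and SPARC, and COL1A2 and TWIST1 were at or near 0. At 24 h the 7 summed to 3280 to 3330 CPM in ATF4KO libraries and 2340 to 2390 CPM in WT libraries, where the untreated sums were 5850 to 5980 CPM in ATF4KO libraries and 5560 to 5630 CPM in WT libraries. Its part in the late results was not tested. The 9 leukocyte markers summed to 0.975 to 4.76 CPM in a library, ITGAM alone averaged at least 1 CPM, and FCGR3A had no count. Of 4 epithelial markers 3 averaged at least 1 CPM, with sums of 3.77 to 17.4 CPM, and of 3 endothelial markers 1 did, with sums of 0.234 to 6.46 CPM. The third untreated ATF4KO column of the deposited TPM did not match its own counts (r = 0.495), so changes were taken from counts. The counts of untreated ATF4KO replicates 1 and 2 also matched each other's TPM column better (0.911 and 0.959) than their own (0.909 and 0.931). Those of replicate 3 matched the TPM column of replicate 2 best (0.964), so that column may hold the values of library 3. Fits without the third column therefore still rest on TPM columns whose labels are uncertain. Fits on TPM that keep the third column ended many calls in both genotypes and turned some. Their values for the differences between genotypes stand beside those results, and the others are in the closing section.

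The genes differed in how much of them could be measured. CXCL1 (73869393 to 73871242 on chromosome 4; gene bounds here are GRCh38, GENCODE 29, and can begin before a RefSeq start) had 0 counts in all 36 libraries, which at 3 counts allows a level of up to 0.185 to 0.352 CPM, depending on the library. CXCL2 (chromosome 4, 74097035 to 74099293) had 12 counts in all, in 9 libraries. Neither passed the filter on low counts, so 8 of the 10 genes were tested. CXCL3 (1495 counts), TNF (1477) and IL6 (1309) were low, whereas CXCL8 (143856), LIF (93485), IL11 (40738), CCL2 (38899) and CXCL14 (11267) were well covered. The CXCL1, CXCL2, CXCL3 and CXCL8 genes lie within 359 kb, and their transcripts share sequence. Of all 31-base words in the transcripts of each gene, 13.82% in CXCL1, 22.4% in CXCL2, 9.54% in CXCL3 and 0 in CXCL8 occur in another of the 4. Counts of CXCL1, CXCL2 and CXCL3 are to that extent uncertain.

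In both genotypes most of the tested genes rose by 4 h and fell by 16 h. After 2 h 6 of the 8 rose and 2 fell in ATF4KO cells, where 9.85% of all tested genes rose and 8.5% fell. In WT cells 5 rose and 2 fell, beside 12.2% and 10.4% of all genes. After 4 h 7 rose and 1 fell in ATF4KO cells (22.1% and 20.3% of all genes), and 7 rose and 1 fell in WT cells (23.6% and 21.1%). The median change of the 8 genes was then 1.20 in ATF4KO cells and 1.20 in WT cells, beside -0.01 and -0.02 over all tested genes. CXCL8, CXCL3, TNF, IL6, CCL2, IL11 and LIF were the genes that rose at 4 h in both, and CXCL14 fell.

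Later the set turned. After 8 h 3 rose and 3 fell in ATF4KO cells (30.7% and 31.1% of all genes), and 2 rose and 4 fell in WT cells (29.7% and 29.6%). By 16 h 8 of 8 had fallen and 0 risen in ATF4KO cells (33% of all genes rose and 32.7% fell), and 1 had risen and 6 fallen in WT cells (33.7% and 32.8%). At 24 h the count was 8 lower and 0 higher in ATF4KO cells (32.4% of all genes rose and 33% fell), and 1 higher and 5 lower in WT cells (33% and 32.4%). The 0 higher in ATF4KO cells at 16 and 24 h by edgeR was also 0 at an unadjusted p under 0.05 and 0 with DESeq2. Median changes at 24 h were -2.63 in ATF4KO cells and -1.91 in WT cells, beside -0.03 and -0.02 over all tested genes. The gene that rose in WT cells at both late times was IL6.

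**Figure D1:**
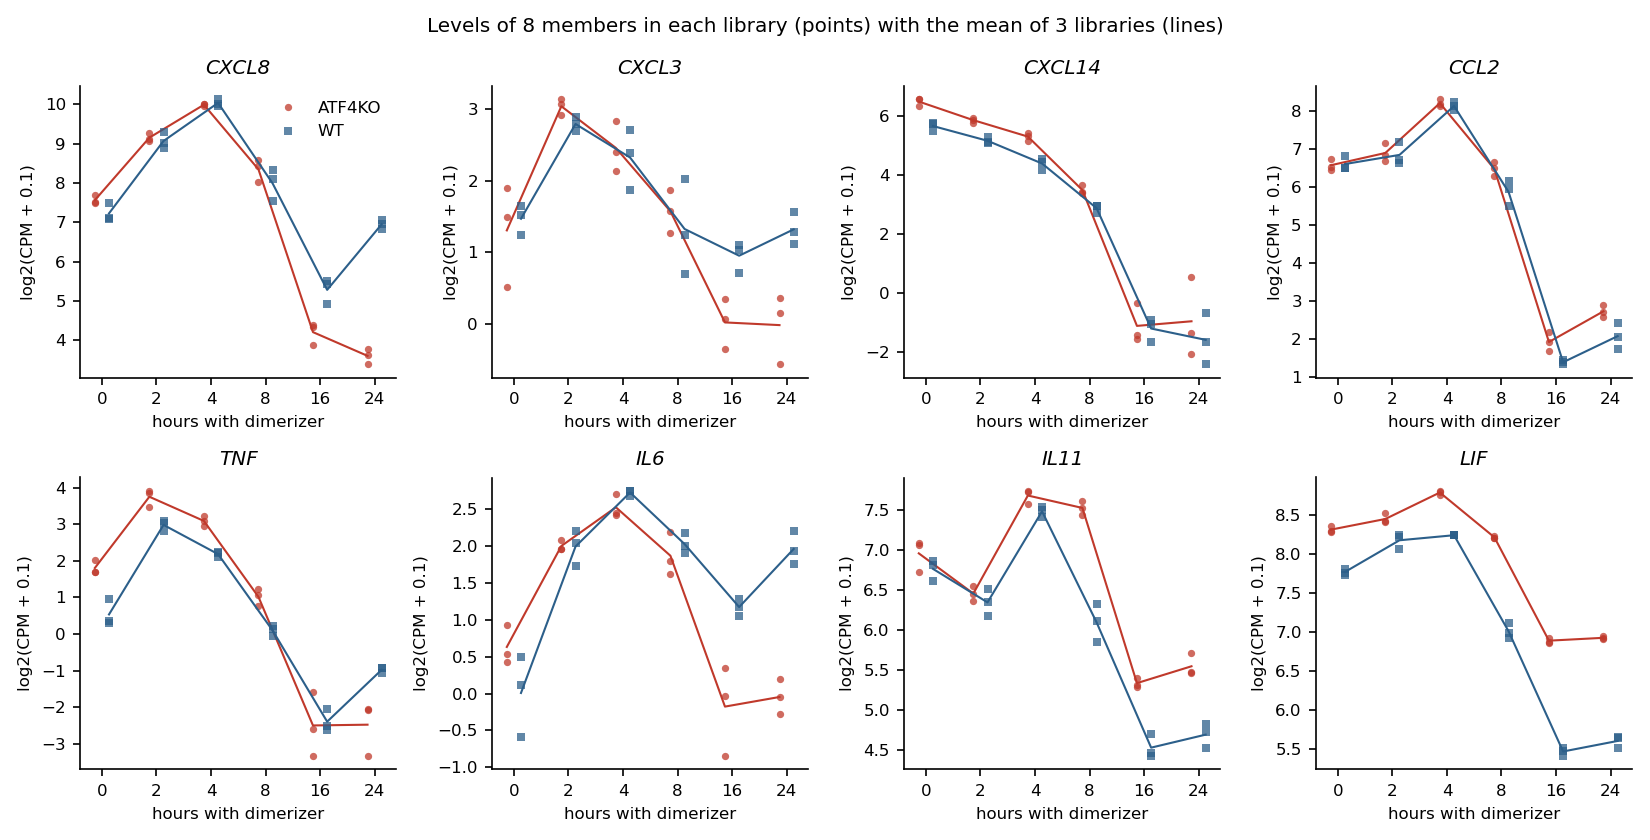
Level of 8 genes in every library, as log2(CPM + 0.1) on the vertical axis against hours with dimerizer; circles are ATF4KO libraries, squares WT libraries, and lines join the means of 3 log2 values. CXCL8, TNF, IL6 and CXCL3 were higher in WT libraries than in ATF4KO libraries at 24 h, and LIF, IL11 and CCL2 were lower.

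CXCL8 (chromosome 4, 73740506 to 73743716) encodes interleukin 8, the main neutrophil attractant of human cells. It peaked at 4 h at overlapping levels in both genotypes, and at 24 h it was far lower in ATF4KO cells than in WT cells. Untreated levels were 206, 179.5 and 183 CPM in ATF4KO libraries and 181, 135 and 139 CPM in WT libraries. After 4 h they were 1000, 1035 and 1024 CPM in ATF4KO libraries and 1004, 1037 and 1123 CPM in WT libraries, and the genotypes overlapped. The fitted level at 4 h was 5.39 times the start in ATF4KO cells and 6.92 times the start in WT cells. At 16 h there were 20.8, 20.3 and 14.7 CPM in ATF4KO libraries and 45.4, 43.1 and 30.0 CPM in WT libraries. At 24 h there were 10.4, 13.7 and 12.3 CPM in ATF4KO libraries and 113, 125 and 134 CPM in WT libraries. All ATF4KO libraries lay below all WT libraries at both late times, and the WT mean was 10.2 times the ATF4KO mean at 24 h.

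By 24 h CXCL8 had fallen by 3.94 ± 0.25 in ATF4KO cells (adjusted p = 4.09e-21), and its change in WT cells, -0.30 ± 0.14, missed the threshold (adjusted p = 0.0545). The ATF4KO change minus the WT change was -1.35 ± 0.28 at 16 h, with an adjusted p of 0.000129, and reached -3.64 ± 0.28 at 24 h, with an adjusted p of 2.19e-15. With each library left out in turn it lay between -3.82 and -3.56 at 24 h. Before that the differences did not pass, with -0.23 ± 0.17, -0.36 ± 0.17 and 0.02 ± 0.18 at 2, 4 and 8 h. In ATF4KO cells CXCL8 means in falling order were 1020 ± 18.0 CPM at 4 h, 572 ± 43.4 at 2 h, 330.4 ± 61.7 at 8 h, 189.6 ± 14.5 at 0 h, 18.6 ± 3.36 at 16 h and 12.2 ± 1.68 at 24 h, with no overlap between neighbours (SD, n = 3). In WT cells CXCL8 means in falling order were 1055 ± 61.0 CPM at 4 h, 542 ± 80.6 at 2 h, 261 ± 68.8 at 8 h, 151 ± 25.4 at 0 h, 124 ± 10.6 at 24 h and 39.5 ± 8.26 at 16 h, with no overlap between neighbours. On TPM with the mismatched untreated column kept, both differences missed the threshold. The 16 h difference was then 0.79, adjusted p = 0.756, on log2(TPM + 1) and 0.99, adjusted p = 0.721, on log2(TPM + 0.1). At 24 h it was -1.45, adjusted p = 0.499, on log2(TPM + 1) and -1.31, adjusted p = 0.603, on log2(TPM + 0.1). Without that column both passed on log2(TPM + 1). The WT change at 24 h passed when untreated WT replicate 2 (-0.37) or 3 (-0.36) was left out, in the fit of only the groups compared (-0.31) and with no filter on low counts (-0.30). The 4 h difference passed in both of these fits (-0.37 and -0.35), and the 2 h difference with no filter (-0.23).

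CXCL3 (chromosome 4, 74036589 to 74038807) also acts through CXCR2. It peaked at 2 h and fell below its start in ATF4KO cells. Untreated levels were 3.64, 1.33 and 2.71 CPM in ATF4KO libraries and 2.77, 2.27 and 3.02 CPM in WT libraries. After 2 h they were 8.69, 8.27 and 7.43 CPM in ATF4KO libraries and 6.80, 7.31 and 6.37 CPM in WT libraries. It had risen by 1.68 ± 0.24 in ATF4KO cells and 1.33 ± 0.23 in WT cells, and by 1.09 ± 0.26 in ATF4KO cells and 0.89 ± 0.25 in WT cells at 4 h. The WT rise at 4 h missed the threshold without WT replicate 3 of that time (0.68, adjusted p = 0.056). At 24 h there were 0.577, 1.01 and 1.19 CPM in ATF4KO libraries and 2.07, 2.85 and 2.33 CPM in WT libraries, with no overlap. It had fallen by 1.40 ± 0.35 in ATF4KO cells (adjusted p = 0.000335), and the WT change of -0.16 ± 0.28 did not pass.

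The difference of the CXCL3 changes at 24 h was -1.24 ± 0.45 (adjusted p = 0.0274), and it rests on 37 counts in the 3 ATF4KO libraries. It missed the threshold without WT replicate 2 of 24 h (-1.09), without untreated ATF4KO replicate 1 (-1.0) or 3 (-1.17), without ATF4KO replicate 1 of 24 h (-1.04), and on log2(TPM + 1) without the third untreated ATF4KO column (-0.51). With that column kept it was -0.08, adjusted p = 0.942, on log2(TPM + 1) and -0.10, adjusted p = 0.949, on log2(TPM + 0.1). Over all alternatives its adjusted p lay between 0.00402 and 0.949. At 16 h the libraries did not overlap either, and the difference of -0.86 ± 0.47 did not pass. It did so without untreated ATF4KO replicate 2 (-1.17). In ATF4KO cells CXCL3 means in falling order were 8.13 ± 0.642 CPM at 2 h, 5.50 ± 1.39 at 4 h, 2.92 ± 0.628 at 8 h, 2.56 ± 1.16 at 0 h, 0.934 ± 0.244 at 16 h and 0.924 ± 0.313 at 24 h, with overlap between 8 and 0 h and between 16 and 24 h (SD, n = 3). In WT cells CXCL3 means in falling order were 6.83 ± 0.475 CPM at 2 h, 5.04 ± 1.43 at 4 h, 2.68 ± 0.384 at 0 h, 2.59 ± 1.26 at 8 h, 2.42 ± 0.396 at 24 h and 1.85 ± 0.269 at 16 h, with overlap between 2 and 4 h, between 0 and 8 h and between 8 and 24 h. The WT change at 16 h, -0.57 ± 0.28, did not pass, but in the fit of only the groups compared it did (-0.59, adjusted p = 0.0267). Summing the counts of CXCL1, CXCL2 and CXCL3 changed no call of CXCL3 in the 16 comparisons.

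CXCL14 (chromosome 5, 135570679 to 135579279) fell at every time in both genotypes until few counts were left. Untreated levels were 80.8, 94.5 and 94.8 CPM in ATF4KO libraries and 45.0, 52.5 and 54.4 CPM in WT libraries, without overlap. The start was thus higher in ATF4KO cells, by 0.84 ± 0.08 (adjusted p = 5.23e-11). The gene had fallen by 0.64 ± 0.08, 1.19 ± 0.09 and 3.01 ± 0.12 at 2, 4 and 8 h in ATF4KO cells, and by 0.51 ± 0.09, 1.27 ± 0.11 and 2.81 ± 0.15 in WT cells. On log2(TPM + 1) without the third untreated ATF4KO column the WT change at 2 h missed the threshold (-0.45, adjusted p = 0.0841). At 24 h there were 1.35, 0.289 and 0.139 CPM in ATF4KO libraries and 0.0862, 0.525 and 0.212 CPM in WT libraries, which rest on 20 counts in ATF4KO cells and 10 in WT cells. The fall was then 7.42 ± 0.44 in ATF4KO cells and 7.39 ± 0.62 in WT cells. Without ATF4KO replicate 1 of 24 h the change was -8.66 in ATF4KO cells, and without WT replicate 2 of 24 h -8.36 in WT cells. The 24 h difference ran between -1.27 and 0.95 with each library left out, the lowest without the ATF4KO library just named and the highest without the WT library. In ATF4KO cells CXCL14 means in falling order were 90.1 ± 7.98 CPM at 0 h, 58.0 ± 3.40 at 2 h, 39.5 ± 3.98 at 4 h, 11.2 ± 1.12 at 8 h, 0.591 ± 0.657 at 24 h and 0.397 ± 0.251 at 16 h, with overlap between 24 and 16 h (SD, n = 3). In WT cells CXCL14 means in falling order were 50.6 ± 4.99 CPM at 0 h, 35.7 ± 2.75 at 2 h, 21.0 ± 2.67 at 4 h, 7.25 ± 0.654 at 8 h, 0.343 ± 0.112 at 16 h and 0.274 ± 0.226 at 24 h, with overlap between 16 and 24 h. None of the 5 differences of the changes passed, with -0.74 ± 0.76 at 16 h and -0.03 ± 0.76 at 24 h. On log2(TPM + 1) without the third untreated ATF4KO column both did (-0.86 and -0.71). Group means were then only 0.26 to 0.52 TPM, where the added 1 holds late values close together. How far those 2 values carry the untreated gap between genotypes was not tested, and no difference of the falls is read from them.

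CCL2 (chromosome 17, 34255218 to 34257203), the monocyte attractant, peaked at 4 h and fell far below its start in both genotypes. Untreated levels were 105, 91.8 and 86.8 CPM in ATF4KO libraries and 111, 89.5 and 90.4 CPM in WT libraries. After 4 h they were 314, 288 and 277 CPM in ATF4KO libraries and 298, 277 and 260.3 CPM in WT libraries. The rise was 1.65 ± 0.10 in ATF4KO cells and 1.51 ± 0.10 in WT cells. At 16 h there were 4.39, 3.63 and 3.08 CPM in ATF4KO libraries and 2.60, 2.51 and 2.41 CPM in WT libraries. The fitted levels lay 24.5-fold below the start in ATF4KO cells and 38.9-fold below it in WT cells. In ATF4KO cells CCL2 means in falling order were 293 ± 19.2 CPM at 4 h, 119 ± 21.3 at 2 h, 94.6 ± 9.61 at 0 h, 88.6 ± 11.3 at 8 h, 6.51 ± 0.699 at 24 h and 3.70 ± 0.654 at 16 h, with overlap between 2 and 0 h and between 0 and 8 h (SD, n = 3). In WT cells CCL2 means in falling order were 278 ± 19.1 CPM at 4 h, 116 ± 25.0 at 2 h, 97.0 ± 12.2 at 0 h, 59.0 ± 13.2 at 8 h, 4.17 ± 1.03 at 24 h and 2.50 ± 0.0972 at 16 h, with overlap between 2 and 0 h. The 24 h libraries thus lay above those of 16 h in each genotype.

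CCL2 was higher in ATF4KO libraries than in WT libraries at 8, 16 and 24 h. At 8 h there were 76.8, 89.5 and 99.5 CPM in ATF4KO libraries and 44.7, 61.4 and 70.9 CPM in WT libraries. The change from 0 h was -0.08 ± 0.12 in ATF4KO cells, which did not pass, and -0.70 ± 0.13 in WT cells, which did. Their difference was 0.62 ± 0.17 (adjusted p = 0.00724). It missed the threshold with DESeq2 (0.62, adjusted p = 0.0503), without WT replicate 1 of 0 h (0.47, adjusted p = 0.0685) or of 8 h (0.45, adjusted p = 0.0681), and on log2(TPM + 1) without the third untreated ATF4KO column (0.66, adjusted p = 0.0934). With that column kept it was 1.52, adjusted p = 0.0662, on log2(TPM + 1) and 1.53, adjusted p = 0.0708, on log2(TPM + 0.1), past neither. Over all alternatives its adjusted p lay between 1.9e-17 and 0.0934. The differences of 0.67 ± 0.49 at 16 h and 0.71 ± 0.40 at 24 h did not pass, but with no filter on low counts both did (0.65 and 0.73). The 24 h difference also passed in the fit of only the groups compared (0.72, adjusted p = 0.0192) and, with the mismatched column kept, on log2(TPM + 1) (1.52, adjusted p = 0.0476) and log2(TPM + 0.1) (1.57, adjusted p = 0.0431). After 2 h CCL2 had risen in ATF4KO cells by 0.34 ± 0.11 (adjusted p = 0.0327), a call lost with DESeq2 (0.34, adjusted p = 0.152) and without any 1 of 4 libraries, where the lowest value was 0.21 without ATF4KO replicate 1 of 2 h. It was also lost on log2(TPM + 1) without the third untreated ATF4KO column (0.41, adjusted p = 0.184). The WT change at 2 h was 0.22 ± 0.11, and it passed without WT replicate 1 of 0 h (0.34) or replicate 2 of 2 h (0.33).

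TNF (chromosome 6, 31575567 to 31578336), a strong activator of NF-kB, peaked at 2 h as CXCL3 did and began higher in ATF4KO cells. Untreated levels were 3.95, 3.12 and 3.17 CPM in ATF4KO libraries and 1.84, 1.18 and 1.12 CPM in WT libraries, a difference of 1.25 ± 0.23 (adjusted p = 2.1e-05). After 2 h they were 11, 14.4 and 14.9 CPM in ATF4KO libraries and 8.36, 6.94 and 8.14 CPM in WT libraries. ATF4KO libraries lay above WT libraries at 0, 2, 4 and 8 h without overlap. The rise at 2 h was 2.00 ± 0.16 in ATF4KO cells and 2.45 ± 0.21 in WT cells, and the difference of -0.45 ± 0.27 did not pass. At 8 h TNF had fallen by 0.79 ± 0.21 in ATF4KO cells, and its change of -0.54 ± 0.30 in WT cells did not pass.

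Very few TNF counts were left at the late times. At 16 h there were 1, 2 and 0 counts in ATF4KO libraries and 2, 1 and 1 counts in WT libraries. The 3 counts in ATF4KO cells against 122 at 0 h are a ratio of 0.0278 per library size (exact 95% interval 0.00566 to 0.0833, counting error only), and against the 4 in WT cells a ratio of 1.01 (0.148 to 5.97). WT cells had fallen by 3.78 ± 0.65 at that time. At 24 h there were 0, 2 and 2 counts in ATF4KO libraries and 5, 5 and 4 counts in WT libraries, or a mean of 0.0946 ± 0.0820 CPM in ATF4KO cells and 0.410 ± 0.0307 CPM in WT cells (SD, n = 3 each). ATF4KO libraries now lay below WT libraries, the reverse of the order up to 8 h. The fall at 24 h was 4.89 ± 0.64 in ATF4KO cells and 1.76 ± 0.39 in WT cells, and the difference was -3.13 ± 0.75 (adjusted p = 0.000187). It lay between -3.45 and -2.71 with each library left out in turn. On TPM with the mismatched column kept it missed the threshold, at -0.60, adjusted p = 0.261, on log2(TPM + 1) and -1.39, adjusted p = 0.114, on log2(TPM + 0.1), and without that column it passed. In ATF4KO cells TNF means in falling order were 13.5 ± 2.13 CPM at 2 h, 8.43 ± 0.781 at 4 h, 3.41 ± 0.467 at 0 h, 1.94 ± 0.309 at 8 h, 0.101 ± 0.121 at 16 h and 0.0946 ± 0.0820 at 24 h, with overlap between 16 and 24 h (SD, n = 3). In WT cells TNF means in falling order were 7.82 ± 0.764 CPM at 2 h, 4.44 ± 0.218 at 4 h, 1.38 ± 0.400 at 0 h, 0.973 ± 0.0979 at 8 h, 0.410 ± 0.0307 at 24 h and 0.0940 ± 0.0442 at 16 h, with no overlap between neighbours.

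**Figure D2:**
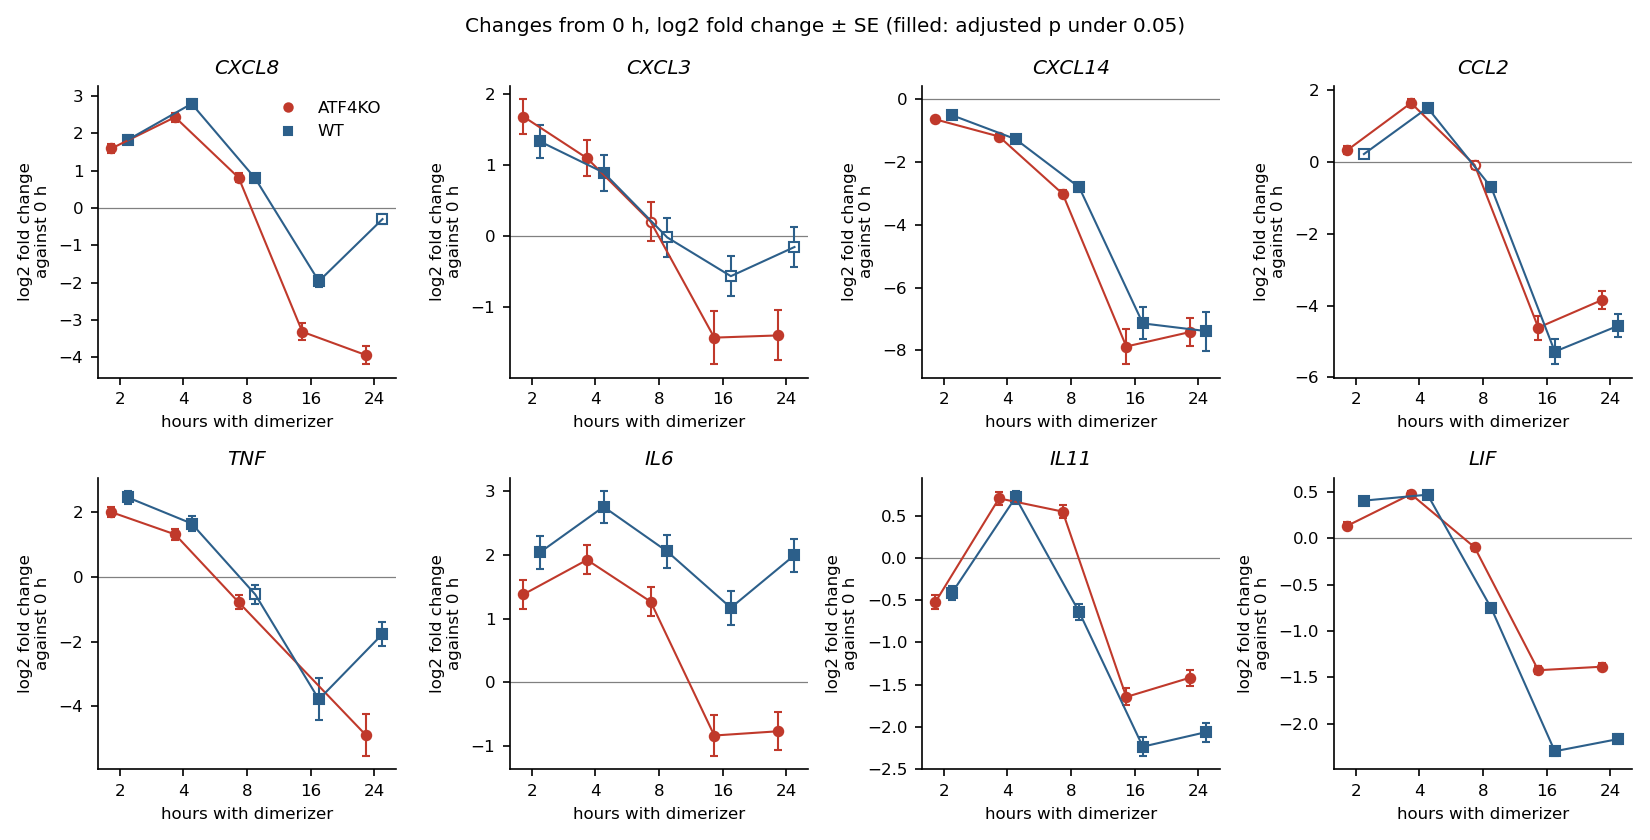
Change from 0 h of 8 genes in ATF4KO cells (circles) and WT cells (squares), as log2 fold change ± SE on the vertical axis against hours with dimerizer; filled symbols have an adjusted p under 0.05, and TNF in ATF4KO cells at 16 h is left out because it rests on 3 counts. CXCL8, CXCL3, TNF, IL6, CCL2, IL11 and LIF lie above 0 at 4 h in both genotypes, and CXCL14 lies below 0 at every time.

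IL6 (chromosome 7, 22725884 to 22732002), which signals through gp130 after binding IL6R, was above its start at all 5 times in WT cells and fell below it by 16 h in ATF4KO cells. Untreated levels were 1.35, 1.25 and 1.81 CPM in ATF4KO libraries and 1.32, 0.985 and 0.562 CPM in WT libraries. After 4 h they were 6.45, 5.28 and 5.34 CPM in ATF4KO libraries and 6.63, 6.64 and 6.33 CPM in WT libraries. The rise was 1.92 ± 0.23 in ATF4KO cells and 2.75 ± 0.25 in WT cells. The genotypes overlapped up to 8 h, and the differences of -0.66 ± 0.34, -0.83 ± 0.34 and -0.79 ± 0.35 at 2, 4 and 8 h did not pass. Without untreated WT replicate 1 the 8 h difference did (-1.19, adjusted p = 0.0317), and so did the untreated difference of 0.64 ± 0.29 (1.02, adjusted p = 0.0316). The rise at 8 h in ATF4KO cells, 1.27 ± 0.23, missed the threshold on log2(TPM + 1) without the third untreated ATF4KO column (0.52, adjusted p = 0.11).

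At 16 h IL6 had 0.878, 1.17 and 0.457 CPM in ATF4KO libraries and 2.17, 1.98 and 2.34 CPM in WT libraries. At 24 h it had 0.865, 0.723 and 1.04 CPM in ATF4KO libraries and 3.28, 4.5 and 3.71 CPM in WT libraries. No ATF4KO library reached a WT library at either time. The change from 0 h at 24 h was -0.77 ± 0.30 in ATF4KO cells (adjusted p = 0.0199) and 1.99 ± 0.26 in WT cells (adjusted p = 1.23e-09), where it had been 1.17 ± 0.27 at 16 h. The difference was -2.0 ± 0.42 at 16 h, with an adjusted p of 0.000124, and -2.76 ± 0.39 at 24 h, with an adjusted p of 1.58e-07, and both passed with each library left out in turn. On TPM with the mismatched column kept the 16 h difference missed the threshold, at -0.97, adjusted p = 0.211, on log2(TPM + 1) and -1.03, adjusted p = 0.45, on log2(TPM + 0.1), and so did the 24 h difference on log2(TPM + 0.1) (-1.89, adjusted p = 0.103). Without that column both passed on log2(TPM + 1). The falls below the start in ATF4KO cells depended on single libraries. At 16 h the change of -0.83 ± 0.32 missed the threshold without untreated ATF4KO replicate 3 (-0.61) or ATF4KO replicate 3 of 16 h (-0.60). At 24 h it did so without untreated ATF4KO replicate 3 (-0.54) or ATF4KO replicate 2 of 24 h (-0.62), and with no filter on low counts both missed it (-0.83, adjusted p = 0.0671, and -0.76, adjusted p = 0.0804). In ATF4KO cells IL6 means in falling order were 5.69 ± 0.654 CPM at 4 h, 3.91 ± 0.194 at 2 h, 3.61 ± 0.763 at 8 h, 1.47 ± 0.300 at 0 h, 0.878 ± 0.162 at 24 h and 0.836 ± 0.360 at 16 h, with overlap between 2 and 8 h and between 24 and 16 h (SD, n = 3). In WT cells IL6 means in falling order were 6.53 ± 0.178 CPM at 4 h, 3.99 ± 0.411 at 8 h, 3.92 ± 0.662 at 2 h, 3.83 ± 0.619 at 24 h, 2.16 ± 0.185 at 16 h and 0.955 ± 0.379 at 0 h, with overlap between 8 and 2 h and between 2 and 24 h. In WT cells the untreated mean was thus the lowest of the 6.

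IL11 (chromosome 19, 55364389 to 55370463), a gp130 cytokine known in bone turnover and fibrosis, dipped, peaked at 4 h and stayed high longer in ATF4KO cells. Untreated levels were 106, 135 and 133 CPM in ATF4KO libraries and 97.8, 112 and 116 CPM in WT libraries. After 2 h it had fallen by 0.52 ± 0.08 in ATF4KO cells and 0.41 ± 0.08 in WT cells. At 4 h there were 210.5, 213 and 190.1 CPM in ATF4KO libraries and 185, 180.4 and 169 CPM in WT libraries. At 8 h there were 173, 183 and 194 CPM in ATF4KO libraries and 57.7, 68.8 and 79.6 CPM in WT libraries, with a ratio of the means of 2.67. IL11 was thus above its start in ATF4KO cells, by 0.55 ± 0.08, and below it in WT cells, at -0.64 ± 0.09. The difference was 1.19 ± 0.12 (adjusted p = 1.16e-10), and it passed in every alternative run. The rise in ATF4KO cells at 8 h did not pass on log2(TPM + 1) without the third untreated ATF4KO column (0.28, adjusted p = 0.0518).

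By 16 h IL11 had fallen by 1.65 ± 0.10 in ATF4KO cells and 2.24 ± 0.11 in WT cells. In ATF4KO cells IL11 means in falling order were 204 ± 12.5 CPM at 4 h, 184 ± 10.6 at 8 h, 124 ± 16.5 at 0 h, 87.5 ± 5.87 at 2 h, 46.7 ± 4.78 at 24 h and 40.2 ± 1.65 at 16 h, with overlap between 4 and 8 h (SD, n = 3). In WT cells IL11 means in falling order were 178 ± 7.88 CPM at 4 h, 108 ± 9.45 at 0 h, 81.3 ± 9.31 at 2 h, 68.7 ± 10.9 at 8 h, 25.8 ± 2.68 at 24 h and 23.0 ± 2.49 at 16 h, with overlap between 2 and 8 h and between 24 and 16 h. The genotypes did not overlap at 4, 8, 16 or 24 h. The differences of 0.59 ± 0.15 at 16 h and 0.64 ± 0.15 at 24 h (adjusted p = 0.00194 and 0.000487) missed the threshold on log2(TPM + 1) without the third untreated ATF4KO column (0.42, adjusted p = 0.0769, and 0.37, adjusted p = 0.111). With that column kept, the 16 h difference was 1.69, adjusted p = 0.127, on log2(TPM + 1) and 1.75, adjusted p = 0.126, on log2(TPM + 0.1), and the 24 h difference was 1.65, adjusted p = 0.134, on log2(TPM + 1) and 1.71, adjusted p = 0.133, on log2(TPM + 0.1). The untreated level was higher in ATF4KO cells by 0.21 ± 0.08 (adjusted p = 0.0473), with overlapping libraries. That call was lost with DESeq2 (0.20, adjusted p = 0.219) and without untreated WT replicate 1 (0.14) or untreated ATF4KO replicate 2 (0.16) or 3 (0.16), and on log2(TPM + 1) without the third untreated ATF4KO column (0.34, adjusted p = 0.0696).

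LIF (chromosome 22, 30240447 to 30246851), a gp130 cytokine that acts on stem cells and bone, was higher in ATF4KO libraries than in WT libraries at all 6 times without overlap. Untreated levels were 311, 312 and 327 CPM in ATF4KO libraries and 216, 213 and 224 CPM in WT libraries, a difference of 0.54 ± 0.04 (adjusted p = 7.73e-15). In ATF4KO cells LIF means in falling order were 440.4 ± 8.68 CPM at 4 h, 348 ± 14.9 at 2 h, 317 ± 9.05 at 0 h, 296 ± 3.52 at 8 h, 121 ± 1.83 at 24 h and 118 ± 2.75 at 16 h, with overlap between 24 and 16 h (SD, n = 3). In WT cells LIF means in falling order were 302 ± 0.987 CPM at 4 h, 289 ± 19.7 at 2 h, 218 ± 6.03 at 0 h, 129 ± 9.03 at 8 h, 48.6 ± 2.45 at 24 h and 44.2 ± 1.62 at 16 h, with overlap between 4 and 2 h. The rise at 4 h was 0.47 ± 0.04 in ATF4KO cells and 0.47 ± 0.04 in WT cells. At 2 h it was smaller in ATF4KO cells, 0.13 ± 0.04, than in WT cells, 0.40 ± 0.04, with a difference of -0.27 ± 0.05 (adjusted p = 0.00483). That difference missed the threshold without untreated ATF4KO replicate 3 (-0.24, adjusted p = 0.0691), in the fit of only the groups compared (-0.26, adjusted p = 0.104) and on log2(TPM + 1) without the third untreated ATF4KO column (-0.24, adjusted p = 0.704). With that column kept it was 0.38, adjusted p = 0.82, on log2(TPM + 1) and 0.38, adjusted p = 0.843, on log2(TPM + 0.1). Over all alternatives its adjusted p lay between 7.67e-05 and 0.843. The ATF4KO rise at 2 h missed the threshold without ATF4KO replicate 1 of that time (0.10, adjusted p = 0.0682) and on log2(TPM + 1) without the third untreated ATF4KO column (0.17, adjusted p = 0.179).

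From 8 h on the LIF change was higher in ATF4KO cells than in WT cells. At 8 h there were 294, 294 and 300.1 CPM in ATF4KO libraries and 121, 126 and 139 CPM in WT libraries. At 24 h there were 121, 119.6 and 123 CPM in ATF4KO libraries and 45.8, 49.8 and 50.2 CPM in WT libraries. The ATF4KO mean was 2.30, 2.67 and 2.50 times the WT mean at 8, 16 and 24 h, beside 1.46 times before treatment. By 24 h LIF had fallen by 1.39 ± 0.04 in ATF4KO cells and 2.17 ± 0.05 in WT cells. The differences of the changes were 0.65 ± 0.06, 0.87 ± 0.07 and 0.78 ± 0.07 at 8, 16 and 24 h (adjusted p = 3.48e-12, 1.78e-14 and 4.8e-13), and each stayed under an adjusted p of 0.05 in every alternative fit, although none reaches 2-fold. The small fall at 8 h in ATF4KO cells, -0.10 ± 0.04, missed the threshold without untreated ATF4KO replicate 3 (-0.06) or ATF4KO replicate 1 of 8 h (-0.09), and on log2(TPM + 1) without the third untreated ATF4KO column (-0.13, adjusted p = 0.163).

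Set side by side, the late differences ran in both directions. At 24 h the change was higher in ATF4KO cells for 2 of the 8 tested genes, IL11 and LIF, and lower for 4, CXCL8, TNF, IL6 and CXCL3, where 17.7% of all tested genes were called higher and 12.1% lower. At 16 h 2, again IL11 and LIF, were higher and 2, CXCL8 and IL6, lower (16.7% and 11% of all genes). At 8 h 3 were higher and 0 lower (11.3% and 6.99%), the higher being CCL2, IL11 and LIF. At 4 h 0 were higher and 0 lower (0.887% and 2.39%), and at 2 h 0 were higher and 1, LIF, was lower (0.0105% and 0.289%). These counts of 0 are edgeR's. At an unadjusted p under 0.05 there was 1 lower gene at 8 h, there were 2 lower and 0 higher at 4 h, and 0 were higher at 2 h, while DESeq2 called 0 in each of these cases. At 2 h DESeq2 gave no adjusted p for 4 of the 8 genes, so it could not have called them. Before treatment 4 genes, TNF, CXCL14, LIF and IL11, were higher in ATF4KO cells and 0 lower (11.6% and 11.9%), with 0 lower also at an unadjusted p under 0.05 and with DESeq2. CXCL8 was not among them at 0.31 ± 0.13 (adjusted p = 0.0821), but it passed without untreated WT replicate 1 (0.47), in the fit of only the groups compared (0.31) and with no filter on low counts (0.32). All changes within a genotype share the same 3 untreated libraries.

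**Figure D3:**
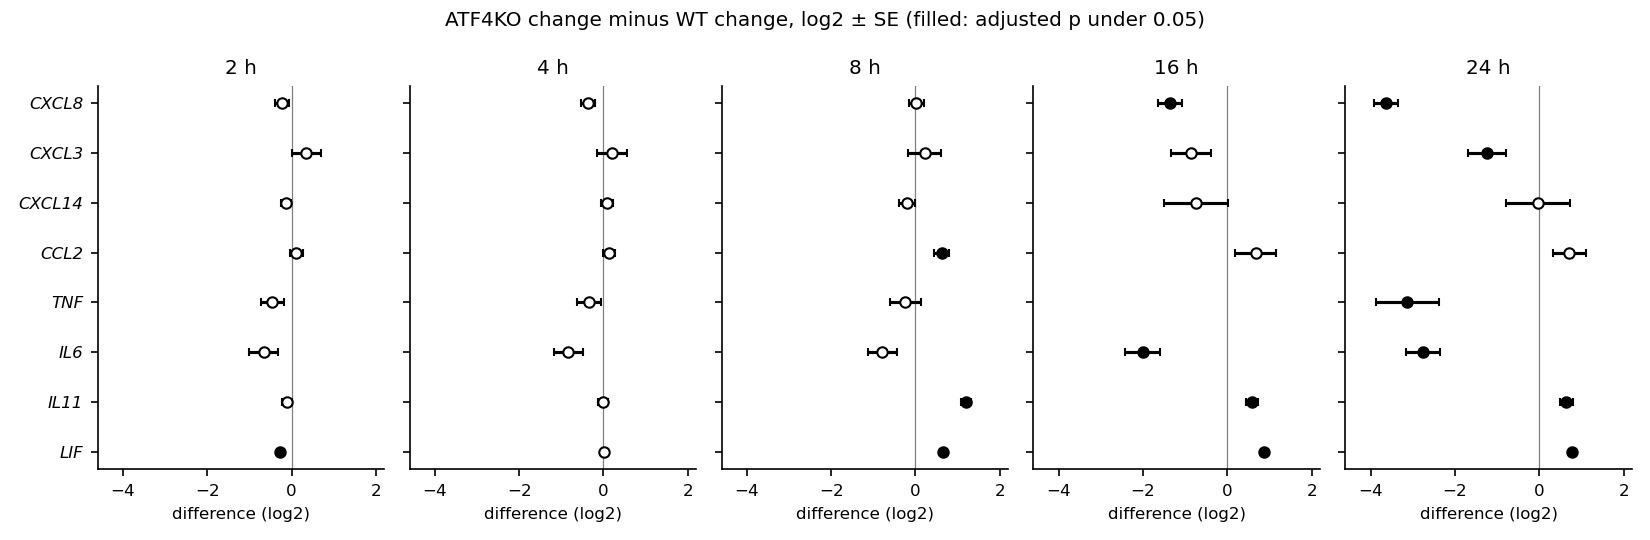
ATF4KO change minus WT change of 8 genes by time, in log2 ± SE; positive values mean a higher change in ATF4KO cells, filled symbols have an adjusted p under 0.05, and TNF at 16 h is left out because it rests on 3 counts. At 24 h CXCL8 (-3.64), TNF (-3.13), IL6 (-2.76) and CXCL3 (-1.24) are below 0, and LIF (0.78) and IL11 (0.64) are above it.

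Levels per transcript length were taken from the deposited TPM and were not tested. After 4 h CXCL8 led with 1035 ± 13.7 TPM in ATF4KO cells and 1029 ± 61.2 TPM in WT cells (SD, n = 3 each, here and below). CCL2 followed with 779.8 ± 53.4 TPM in ATF4KO cells and 709 ± 43.6 TPM in WT cells. LIF had 206 ± 9.21 TPM in ATF4KO cells and 128 ± 4.66 TPM in WT cells. These 3 and IL11 were over 100 TPM in both genotypes. IL6, CXCL3 and TNF were the lowest of the tested genes, with 9.99, 9.10 and 8.42 TPM in ATF4KO cells and 12.3, 7.97 and 4.25 TPM in WT cells. By 24 h LIF led in ATF4KO cells with 50.0 ± 1.99 TPM, and CXCL8 led in WT cells with 118 ± 10.4 TPM. CXCL1 stood at the smallest TPM of the table, 0.102, in every library.

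**Figure D4:**
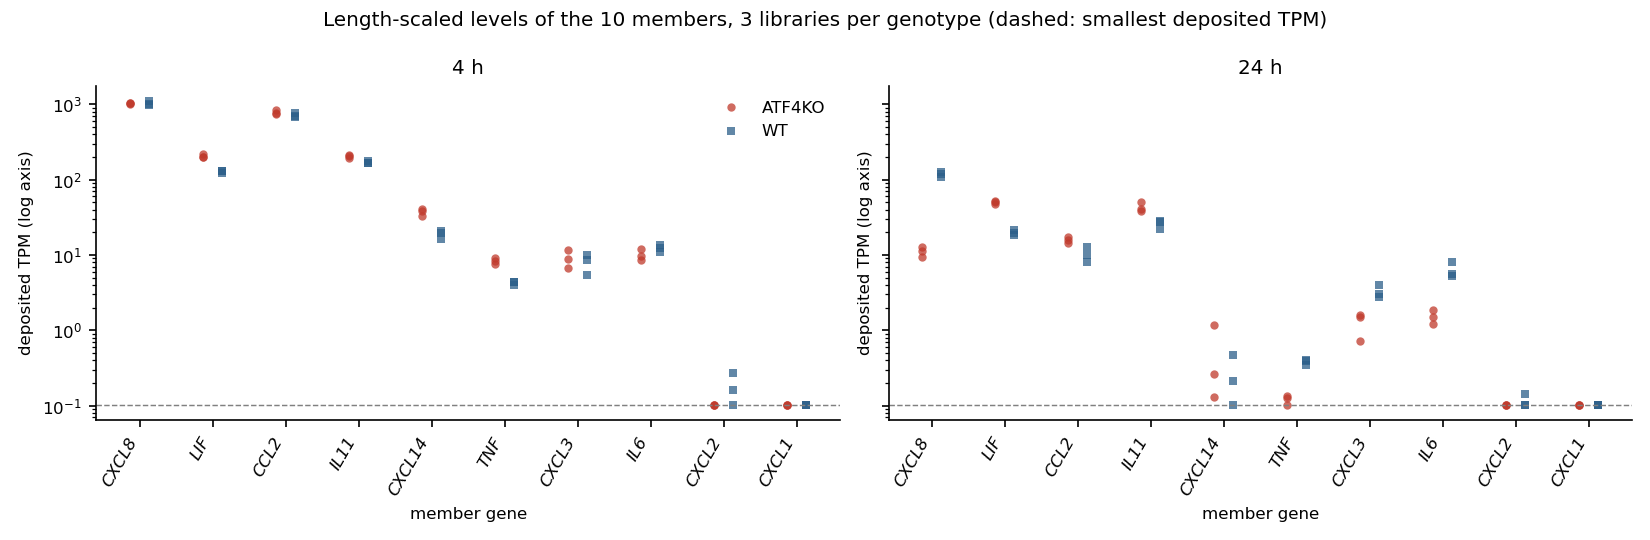
Deposited TPM of the 10 genes at 4 h and 24 h on a logarithmic axis, 1 point per library, with ATF4KO as circles and WT as squares; the dashed line is the smallest TPM in the table, 0.102. CXCL8 leads at 4 h in both genotypes, and at 24 h it has 11.2 TPM in ATF4KO cells and 118 TPM in WT cells.

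Chemokine receptors of the list were at or near 0 in these cells except ACKR3, whereas gp130 and its partners were expressed. Untreated means of ACKR3 were 27.45 CPM in ATF4KO cells and 38.19 CPM in WT cells. CXCR1, CXCR2, CXCR4, CCR2 and ACKR1 did not pass the filter on low counts, and CXCR1 had no count, so 8 of 13 receptors were tested. Medians here and below stand beside medians over all tested genes that lay in ATF4KO cells at -0.01 after 2 h, -0.01 after 4 h and -0.03 after 24 h, and in WT cells at -0.01 after 2 h, -0.02 after 4 h and -0.02 after 24 h. The shares of all genes called are those given above. At 4 h 5 rose and 1 fell in ATF4KO cells (median 0.37), and 4 rose and 1 fell in WT cells (median 0.37). IL6ST, which encodes gp130, rose by 0.40 ± 0.03 in ATF4KO cells and 0.55 ± 0.03 in WT cells. IL6R, the IL6-binding chain, rose by 1.19 ± 0.14 in ATF4KO cells and 0.93 ± 0.14 in WT cells, and IL11RA, the IL11-binding chain, fell by 0.65 ± 0.13 in ATF4KO cells and 0.69 ± 0.14 in WT cells. At 24 h 2 rose and 4 fell in ATF4KO cells (median -0.32), and 4 rose and 3 fell in WT cells (median 0.09). OSMR, the oncostatin M receptor, then had 133 ± 5.69 CPM in ATF4KO cells and 208 ± 2.29 CPM in WT cells. TNFRSF1A, the main TNF receptor, had 122 ± 0.360 CPM in ATF4KO cells and 211 ± 7.94 CPM in WT cells (SD, n = 3 each). By the difference of the changes 3 receptors were higher and 3 lower in ATF4KO cells at 24 h, with OSMR at -0.70 ± 0.06, TNFRSF1A at -0.74 ± 0.07, IL6ST at -0.39 ± 0.05 and ACKR3, a scavenging chemokine receptor, at 1.75 ± 0.31.

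Most genes of the NF-kB pathway had risen at 4 h, as had CXCL8, CXCL3 and CCL2, whereas CXCL14 had fallen. Of 14, 12 rose in ATF4KO cells at 4 h (median 0.38) and 12 in WT cells (median 0.50), and the rest did not pass. RELB, a subunit of the non-canonical pathway, rose by 1.28 ± 0.05 in ATF4KO cells and 1.49 ± 0.05 in WT cells, and NFKB1, which encodes p50 and its precursor, by 1.06 ± 0.06 in ATF4KO cells and 1.20 ± 0.06 in WT cells. The feedback inhibitor gene NFKBIA had risen at 2 h by 1.00 ± 0.06 in ATF4KO cells and 1.12 ± 0.06 in WT cells, and TNFAIP3, which encodes the inhibitor A20, by 1.25 ± 0.08 in ATF4KO cells and 1.38 ± 0.08 in WT cells. At 24 h 5 rose and 9 fell in ATF4KO cells (median -0.41), and 7 rose and 6 fell in WT cells (median 0.05). The ATF4KO change was lower than the WT change for 8 of the 14 at 24 h, beside 12.1% of all tested genes, and the other 6 did not pass. NFKBIZ, which encodes an atypical IκB protein known as a coactivator of IL6 transcription, stood at -1.18 ± 0.10, and NFKB2 was at -0.57 ± 0.05, RELB at -0.56 ± 0.08 and NFKBIE at -0.40 ± 0.07.

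Regulators of cytokine mRNA decay moved in both directions. At 2 h 4 rose and 1 fell in ATF4KO cells (median 0.02), and 4 rose and 1 fell in WT cells (median 0.03), of 12. ZFP36, which encodes tristetraprolin, a protein that speeds decay of TNF mRNA, had risen by 0.70 ± 0.10 in ATF4KO cells and 0.86 ± 0.09 in WT cells. ZC3H12A, which encodes the RNase Regnase-1, had risen by 0.44 ± 0.06 in ATF4KO cells and 0.52 ± 0.06 in WT cells. At 24 h 5 rose and 6 fell in ATF4KO cells (median -0.14), and 4 rose and 8 fell in WT cells (median -0.41). ZC3H12A had then fallen by 1.71 ± 0.08 in ATF4KO cells and 1.65 ± 0.08 in WT cells, and ZFP36L1, a relative of ZFP36, by 1.41 ± 0.03 in ATF4KO cells and 1.21 ± 0.03 in WT cells. At 8 h 9 of the 12 had a higher change in ATF4KO cells, beside 11.3% of all tested genes, and the other 3 did not pass, with ZFP36L2 at 0.84 ± 0.06, ZFP36L1 at 0.23 ± 0.04, HNRNPD at 0.22 ± 0.04 and MAPKAPK2 at 0.20 ± 0.04.

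Of 10 genes of gp130 signalling and its targets, at 4 h 3 rose and 2 fell in ATF4KO cells (median 0.05), and 5 rose and 1 fell in WT cells (median 0.12). SOCS3, a feedback inhibitor induced by STAT3, rose by 1.26 ± 0.09 in ATF4KO cells and 1.39 ± 0.09 in WT cells, and STAT3 itself by 0.11 ± 0.03 in ATF4KO cells and 0.27 ± 0.03 in WT cells. At 24 h 1 rose and 6 fell in ATF4KO cells (median -0.44), and 2 rose and 5 fell in WT cells (median -0.27). PIM1, a kinase gene and STAT3 target, had fallen by 1.78 ± 0.08 in ATF4KO cells and 2.26 ± 0.09 in WT cells, and BCL6, a repressor gene, by 2.03 ± 0.09 in ATF4KO cells and 1.21 ± 0.09 in WT cells. By the difference of the changes at 24 h 2 of the 10 were higher in ATF4KO cells, 2 lower, and 6 did not pass. Of all tested genes 17.7% were higher and 12.1% lower. The differences at 24 h were -0.55 ± 0.05 for JAK1, -0.81 ± 0.12 for BCL6, 0.48 ± 0.12 for PIM1 and 1.15 ± 0.36 for CISH.

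Among 27 other chemokine and cytokine genes 18 were tested, and at 24 h 1 rose and 9 fell in ATF4KO cells (median -0.82), and 3 rose and 12 fell in WT cells (median -0.98). TSLP, an epithelial cytokine of type 2 inflammation, had 1.28 ± 0.121 CPM in ATF4KO cells and 19.8 ± 0.727 CPM in WT cells (SD, n = 3 each), where untreated levels were 1.41 ± 0.0497 CPM in ATF4KO cells and 0.630 ± 0.260 CPM in WT cells. IL1A, which encodes the alarmin interleukin 1α, had 0.523 ± 0.0469 CPM in ATF4KO cells and 15.8 ± 1.24 CPM in WT cells at 24 h. Both thus stood many times higher in WT cells, and the differences of the changes were -5.12 ± 0.42 for TSLP (adjusted p = 8.21e-14) and -4.69 ± 0.52 for IL1A (adjusted p = 6.26e-10). IL24, of the IL10 family, went the other way, with 60.5 ± 4.43 CPM in ATF4KO cells and 21.1 ± 1.22 CPM in WT cells and a difference of 1.57 ± 0.10 (adjusted p = 3.29e-16). IL18, another alarmin gene, had 253 ± 5.15 CPM in ATF4KO cells and 197 ± 7.58 CPM in WT cells, a difference of 0.41 ± 0.04. By the difference of the changes at 24 h 3 of the 18 were higher in ATF4KO cells, 4 lower, and 11 did not pass. Of all tested genes 17.7% were higher and 12.1% lower. The median difference was 0.205, beside 0.0453 over all tested genes. At 4 h 9 rose in ATF4KO cells (median 0.48) and the other 9 did not pass, and 10 rose and 1 fell in WT cells (median 0.49). CCL20, which attracts CCR6-bearing lymphocytes, rose by 1.05 ± 0.08 in ATF4KO cells and 1.71 ± 0.09 in WT cells, and IL32 by 0.53 ± 0.05 in ATF4KO cells and 1.04 ± 0.05 in WT cells.

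The course of each gene over the 12 group means was set beside those of 16184 genes as Pearson's r of log2 CPM, a description in which all points share the time course and the scaling. CXCL3 was most like ZFAND5 (0.985) and NFKBIA (0.95), CXCL8 most like KCTD18 (0.975) and SOD2 (0.967), and TNF most like SLC2A3 (0.967) and TNFAIP3 (0.966). The nearest to CCL2 were IFNGR2 (0.99) and NECAP2 (0.987), to CXCL14 C1QTNF3 (0.997) and PLEKHB1 (0.996), and to IL6 ST3GAL1 (0.942) and FBXO11 (0.931). The nearest to IL11 were HBEGF (0.993) and WTIP (0.987), and to LIF SYNGR3 (0.989) and PRKAR2B (0.987). Among the 8 genes themselves r was 0.931 between CXCL14 and CCL2, 0.93 between CXCL3 and TNF and 0.928 between CCL2 and IL11. It was 0.926 between IL11 and LIF, 0.92 between CXCL3 and CXCL8 and 0.289 between IL6 and LIF.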

How the data were processed

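RNA from 36 wells (12 groups of 3) was sequenced from directional NEBNext Ultra II libraries, per the labels' protocols. FastQC 0.11.5, Salmon 0.9.1 and GRCh38 are named, per the submitters' processing notes. The authors deposited estimated counts per gene, 72% to 78.9% of which were whole, and TPM, both not logged. No column was left unmapped. The smallest deposited TPM was 0.102.

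Estimated counts were rounded. Genes passing filterByExpr by group were scaled by TMM and tested with edgeR 4.0.16 (R 4.3.3), quasi-likelihood, 1 mean per group over all 36 libraries. The changes from 0 h, ATF4KO against WT at 0 h and the differences of the changes gave 16 comparisons, each adjusted over 19043 genes. The script was tested on simulated data. Alternatives were RLE factors, DESeq2 1.42.0, no filter, only the groups compared, the replicate block, calls of at least 2-fold, each library left out, the CXCL1 to CXCL3 counts summed, and limma 3.58.1 on log2(TPM + 1) or log2(TPM + 0.1). Replicate counts differed by more than sampling noise (chi-square per degree of freedom 1.34 to 2.61). Intervals and limits at 3 counts cover counting error only. No fitted fold change is given against a group that held at most 3 counts of a gene.

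The members and gene lists were chosen with earlier results of these data known. From each list, up to 4 tested genes of smallest adjusted p and a mean of at least 1 CPM were eligible to be named in a comparison, with up to 2 that moved against the rest, and for likeness the 2 genes of highest r.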

Additional observations from a re-analysis of the deposited data

Results flagged for a closer look

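The 14 results below are those in which the change with the dimerizer differed between ATF4KO cells and WT cells by the interaction test of edgeR with Benjamini-Hochberg adjustment, given as ATF4KO change minus WT change in log2 ± SE. Those that were lower in ATF4KO cells were CXCL8 at 16 h (-1.35 ± 0.28) and 24 h (-3.64 ± 0.28), IL6 at 16 h (-2.0 ± 0.42) and 24 h (-2.76 ± 0.39), TNF at 24 h (-3.13 ± 0.75), CXCL3 at 24 h (-1.24 ± 0.45) and LIF at 2 h (-0.27 ± 0.05). Those that were higher were CCL2 at 8 h (0.62 ± 0.17), IL11 at 8 h (1.19 ± 0.12), 16 h (0.59 ± 0.15) and 24 h (0.64 ± 0.15), and LIF at 8 h (0.65 ± 0.06), 16 h (0.87 ± 0.07) and 24 h (0.78 ± 0.07). LIF is the gene found on both sides, lower at 2 h and higher from 8 h, but its 2 h call was lost in several alternatives given above.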

How the results depend on the processing

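There were 128 results, 8 genes in 16 comparisons. Size factors by the RLE method left all 128 with the same direction and side of the threshold. So did the replicate block, with which 128 of 128 were the same. Correlations of same-numbered wells lay between -0.125 and 0.141, and in no comparison were all over 0.1, so the numbers were not used as pairs. However, 26 of 36 libraries were closest to their own number over 10522 genes, a hint of pairing from the data and not from the design. With DESeq2 3 calls were lost and 121 results were the same, and 4 of the 2 h differences had no adjusted p. With no filter on low counts 7 were gained and 2 lost, and with only the groups compared 5 gained and 1 lost. Leaving out 1 library gave 22 losses and 8 gains in 1008 fits of a result. No called value turned in sign there, and 41 values called in neither fit did. The cause was not tested where none is given.

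Counting only calls of at least 2-fold, which is stricter by construction, the number of genes called was 4 at 2 h and 2 at 8 h in ATF4KO cells, 4 at 2 h, 5 at 4 h and 2 at 8 h in WT cells, 1 before treatment, and 0 at 2 h, 1 at 8 h and 2 at 16 h for the differences. With no filter on low counts it was 2 at 2 h and 1 at 4 h for the differences. With only the groups compared it was 0 at 2 h and 1 at 4 h for the differences. The count at 2 h for the differences lay between 0 and 1 with 1 library left out, and was 0 without untreated ATF4KO replicate 3.

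On the deposited TPM 27 calls were lost without a change of sign with log2(TPM + 1) and 32 with log2(TPM + 0.1). Apart from these, 8 and 9 values, listed below, were opposite in sign to a called one. With log2(TPM + 1) the number of genes called was 4 at 16 h and 4 at 24 h in ATF4KO cells, 3 at 2 h and 3 at 8 h in WT cells, 0 before treatment, and 0 at 2 h, 1 at 16 h and 3 at 24 h for the differences. With log2(TPM + 0.1) it was 4 at 16 h and 4 at 24 h in ATF4KO cells, 2 at 2 h, 4 at 4 h and 3 at 8 h in WT cells, 0 before treatment, and 0 at 2 h, 1 at 16 h and 2 at 24 h for the differences. Without the third untreated ATF4KO column it was 3 at 8 h in ATF4KO cells, and 0 at 2 h for the differences. Values of opposite sign to a called one, with log2(TPM + 1) and then log2(TPM + 0.1), were CXCL14 in ATF4KO cells at 2 h (0.0796 and 0.0902), IL11 in ATF4KO cells at 2 h (0.71 and 0.74), TNF in ATF4KO cells at 8 h (0.0169 and 0.23), LIF in ATF4KO cells at 8 h (0.49 and 0.49), IL6 in ATF4KO cells at 16 h (0.15 with the second), IL11 at 0 h between genotypes (-0.94 and -0.98), LIF at 0 h between genotypes (-0.0611 and -0.0647), LIF in the difference at 2 h (0.38 and 0.38) and CXCL8 in the difference at 16 h (0.79 and 0.99). Without the third untreated ATF4KO column 0 turned in sign and 12 were lost. Over all settings 73 of 2044 values changed sign but were called under neither setting, the 41 above included. Other calls lost, with log2(TPM + 1) and then log2(TPM + 0.1), were in ATF4KO cells CXCL14 at 4 h (-0.45 and -0.45), CXCL3 at 16 h (-0.28 and -0.34), CXCL8 at 16 h (-1.22 and -1.04), IL6 at 16 h (-0.10 with the first), IL11 at 16 h (-0.52 and -0.50), CXCL3 at 24 h (-0.34 and -0.42), CXCL8 at 24 h (-1.83 and -1.69), IL6 at 24 h (-0.25 and -0.0517) and IL11 at 24 h (-0.39 and -0.36). In WT cells they were CXCL3 at 2 h (1.38 with the second), CXCL8 at 2 h (1.85 and 1.86), CXCL14 at 2 h (-0.45 and -0.46), IL11 at 2 h (-0.37 and -0.37), LIF at 2 h (0.41 and 0.41), CXCL3 at 4 h (0.91 with the second), CXCL14 at 4 h (-1.26 with the second), IL11 at 4 h (0.63 and 0.64), LIF at 4 h (0.39 and 0.39), CXCL8 at 8 h (0.69 and 0.69), CCL2 at 8 h (-0.67 and -0.68), IL11 at 8 h (-0.74 and -0.74), CXCL8 at 16 h (-2.04 with the second) and IL6 at 16 h (1.18 with the second). Between untreated genotypes they were CXCL14 (0.16 and 0.16) and TNF (0.30 and 0.27).

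Over all genes, calls with log2(TPM + 1), log2(TPM + 0.1) and log2(TPM + 1) without the third untreated ATF4KO column, in this order, are set beside those from counts, with the share higher in parentheses. In ATF4KO cells at 2 h there were 1500 (71.9%), 1429 (73.9%) and 1317 (72.3%), beside 3493 (53.7%). In ATF4KO cells at 4 h there were 5915 (60.8%), 5680 (62.3%) and 5167 (63.0%), beside 8073 (52.0%). In WT cells at 2 h there were 1093 (78.0%), 1084 (78.2%) and 1951 (72.5%), beside 4312 (54.0%). In WT cells at 4 h there were 5224 (57.2%), 5050 (58.5%) and 6153 (56.0%), beside 8511 (52.7%). Between untreated genotypes at 0 h there were 1442 (55.5%), 1306 (53.8%) and 2023 (51.1%), beside 4480 (49.4%). For the difference at 2 h there were 23 (8.7%), 19 (5.3%) and 35 (5.7%), beside 57 (3.5%). For the difference at 4 h there were 243 (28.4%), 215 (24.2%) and 302 (25.8%), beside 624 (27.1%). For the difference at 8 h there were 1503 (44.0%), 1419 (44.5%) and 1453 (43.8%), beside 3477 (61.7%). For the difference at 16 h there were 2263 (48.3%), 2259 (49.6%) and 2859 (51.0%), beside 5283 (60.2%). For the difference at 24 h there were 2465 (47.1%), 2412 (48.8%) and 3228 (49.0%), beside 5684 (59.4%). The difference at 2 h had 165 (27.3%) calls with no filter on low counts and 63 (27.0%) with DESeq2.

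Depth limits TNF, CXCL14 and CXCL3 at the late times, where groups held few counts, and IL6 throughout. CXCL1 and CXCL2 could not be compared at this depth.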
